A study of Arabidopsis thaliana with 12 samples.

Results

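The mTERF proteins, named after the mitochondrial transcription termination factor, are nucleus-encoded proteins that enter mitochondria or chloroplasts and bind organellar nucleic acid. Plants have many of them, and mutants of several family members have pale leaves, arrested embryos or altered responses to heat, salt or singlet oxygen. In leaves the family is known mostly for its part in the transcription, splicing and translation of chloroplast and mitochondrial genes, on which the photosynthetic machinery depends. The 4 genes described here are AT1G62150, AT1G61990, AT3G46950 and AT5G55580. They were chosen by locus, each with an array probe that the platform annotation assigns to 1 gene only, and 4 further family genes with such a probe serve for comparison. They are 4 of 691 genes with a probe of their own on an array of 3439 probes, and they entered the analysis among 3438 features. AT5G55580 carries the name mTERF9 in the reference gene table and its product is known as a chloroplast protein needed for normal chloroplast development. The table gives the other 3 genes no mTERF name, so their place in the family rests on general annotation knowledge.

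The RNA came from wild-type Arabidopsis thaliana of the ecotype Columbia 0, and the labels name no organ. The 6 control samples were grown at 80 µE (growth light), and the 6 recovery samples were exposed to 1000 µE for 1 h and put back to 80 µE, for 2 h by the titles and descriptions and 1 h by the source names. The titles give 0 h for control and 2 h for recovery, so time of sampling and light cannot be told apart. No label says which samples came from separate plants, and p-values here describe only how these samples scatter, part of which may be technical. In bulk RNA, fewer cells of a type and less RNA per cell cannot be told apart. All 6 green tissue genes fixed as markers had a probe, and the photosynthesis genes PSBW, LHB1B2 and PSAN stood at the 99.7th, 99.4th and 98.7th percentile of mean intensity over all features, with SBPASE lowest of the 6 at the 68.5th.

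Within each group, samples 1 and 2, 3 and 4, and 5 and 6 resembled each other, with correlations of 0.853 to 0.942 across features against 0.683 to 0.824 between samples of different pairs. The median deposited intensity was 0.197 and 0.196 in recovery 3 and 4, 0.426 to 0.458 in the other recovery samples and 0.200 to 0.284 in the controls. Fold changes of the 4 mTERF genes that turn on samples 3 and 4 are given with and without them. Those of the other family genes are given from all 12 samples only. The part of these medians in the results was not tested.

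None of the 4 mTERF genes passed the limma test of recovery against control over all features (adjusted p under 0.05), a threshold that 3.03% of the 3438 features passed. At an unadjusted p under 0.05, 0 of the 4 passed against 18.3% of all features. The geometric mean of AT5G55580 in recovery was 1.56 times that in control, that of AT1G62150 1.28 times and that of AT3G46950 1.19 times, and the AT1G61990 mean in control was 1.11 times that in recovery. With the replicate number as a block, 0 of the 4 passed, beside 106 of the 3438 features. The SE and intervals given below are from the fit without a block, which treats all samples as independent. With pairs of samples averaged the SE was 0.46 for AT1G62150, 0.57 for AT1G61990, 0.49 for AT3G46950 and 0.45 for AT5G55580. With pairs as a random block it was 0.33, 0.62, 0.43 and 0.83 in that order. None of the 4 passed in either fit, where 0 and 3 of all features passed. Of the 4, 1 had a log2 fold change below 0, with a median of 0.31, beside 51.2% of all features below 0 and a median of -0.02. Every one of the 4 had overlapping groups, while 4.42% of all features had groups of 6 that did not overlap. No value of these genes was listed at 0 or lay at the floor set for dim values (0.0298), so none of their fold changes rests on that floor.

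**Figure D1:**
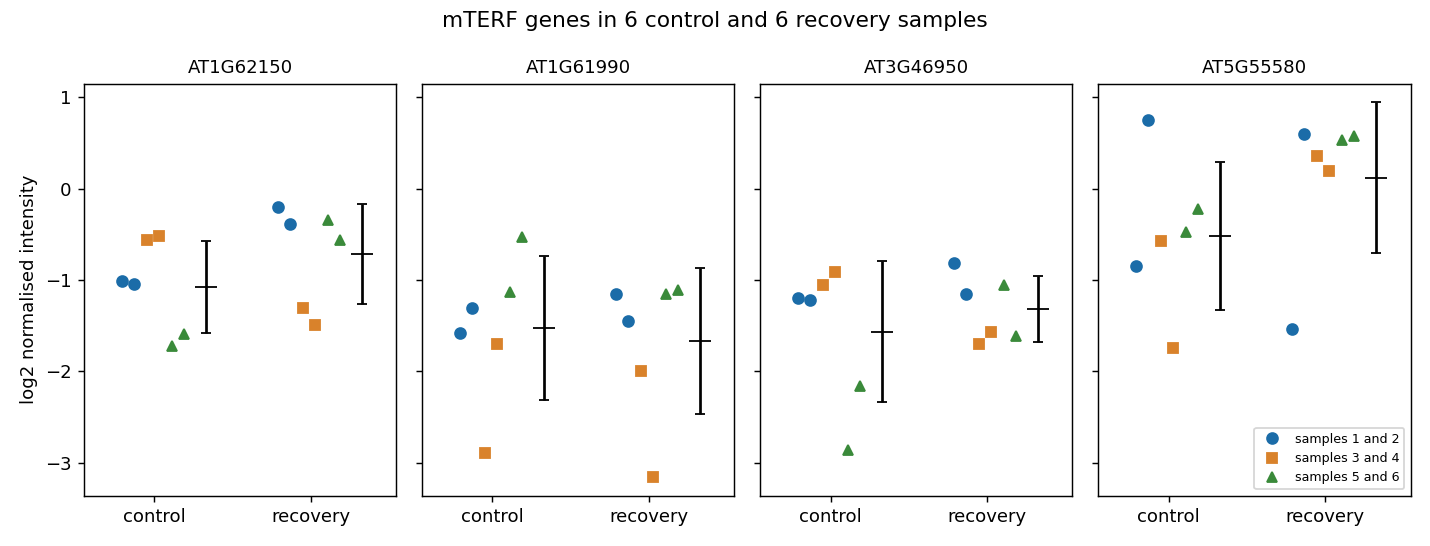
Log2 normalised intensity (vertical axis) of the 4 mTERF genes in each of the 6 control and 6 recovery samples. Colours and shapes mark the pairs of samples, and black bars the mean and SD of each group. The groups overlap for every gene, and the 2 samples of a pair lie close together for AT1G62150 but up to 2.13 apart for AT5G55580.

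AT5G55580 (mTERF9) had the highest fold change of the 4. Its log2 normalised intensity ran from -1.75 through a median of -0.52 to 0.75 in control samples and from -1.53 through 0.44 to 0.59 in recovery samples. The recovery samples other than recovery 1 lay between 0.19 and 0.59, above all controls but control 2, while recovery 1 lay at -1.53. The group means were -0.52 ± 0.81 (SD, n = 6) and 0.12 ± 0.82 (SD, n = 6), which gave a log2 fold change of 0.64 ± 0.45 (SE) and a 95% interval of -0.34 to 1.62 (limma, adjusted p = 0.484). On the scale as deposited the intensity was 0.214 to 1.75 in control and 0.521 to 1.63 in recovery samples. By pair, recovery exceeded control by 1.43 on the log2 scale in samples 3 and 4 and by 0.90 in samples 5 and 6, whereas samples 1 and 2 gave -0.42. There the 2 samples of a pair were themselves far apart, by 1.59 in control and 2.13 in recovery, with sample 1 below sample 2 in both groups. Without recovery 1 the log2 fold change was 0.97 (limma, adjusted p = 0.224), and without samples 3 and 4 of both groups it was 0.24 (limma, adjusted p = 0.853).

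AT1G62150, in a run of mTERF genes on chromosome 1, differed between groups by amounts that turned on the pair of samples. Its log2 normalised intensity ran from -1.72 through a median of -1.03 to -0.52 in control and from -1.49 through -0.47 to -0.20 in recovery samples. Of the recovery samples, 3 lay above the highest control, and recovery 3 and 4 lay below all but controls 5 and 6. The means were -1.08 ± 0.50 (SD, n = 6) and -0.71 ± 0.55 (SD, n = 6), which gave a log2 fold change of 0.36 ± 0.30 (SE) and a 95% interval of -0.30 to 1.02 (limma, adjusted p = 0.569). Recovery minus control came to 0.74 for samples 1 and 2 and to 1.20 for samples 5 and 6, but to -0.86 for samples 3 and 4. The 2 samples of a pair differed by 0.03 to 0.21 in this gene. The means of the pairs lay further apart, at -1.03, -0.54 and -1.66 in control and -0.29, -1.40 and -0.45 in recovery samples. No label matches control with recovery samples by number, so the gap within a pair does not measure the scatter of the 3 differences. The deposited intensities showed the same signs, with 0.588 and 0.631 in control 3 and 4 against 0.284 and 0.238 in recovery 3 and 4. In control 5 and 6 they were 0.208 and 0.230, against 0.953 and 0.851 in recovery 5 and 6. Without samples 3 and 4 of both groups the log2 fold change was 0.97 and passed the limma test (adjusted p = 0.0269), a threshold that 12.1% of all features passed in that fit, which treats the 8 remaining samples as independent. When the remaining pairs entered as a random block, which was chosen after seeing the data, the adjusted p was 0.0706 and the gene was not called, while 3.23% of all features were. Without samples 5 and 6 of both groups the log2 fold change was -0.059.

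AT3G46950, on chromosome 3, followed the same order of pairs. Its log2 normalised intensity ran from -2.86 through a median of -1.21 to -0.92 in control and from -1.71 through -1.36 to -0.81 in recovery samples. The recovery values lay within the range of the controls except recovery 1, the highest of all 12. Controls 5 and 6, at -2.86 and -2.16, were the lowest of all 12. The means were -1.57 ± 0.77 (SD, n = 6) and -1.32 ± 0.36 (SD, n = 6), which gave a log2 fold change of 0.25 ± 0.34 (SE) and a 95% interval of -0.49 to 0.99 (limma, adjusted p = 0.740). Recovery minus control came to 0.22 for samples 1 and 2, to -0.65 for samples 3 and 4 and to 1.18 for samples 5 and 6. Without samples 5 and 6 of both groups the log2 fold change turned to -0.21 (limma, adjusted p = 0.691), and without control 5 alone it was -0.0094. Without samples 3 and 4 of both groups it was 0.70 (limma, adjusted p = 0.337).

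AT1G61990, a close neighbour of other mTERF genes on chromosome 1, had the smallest fold change of the 4. Its log2 normalised intensity ran from -2.90 through a median of -1.45 to -0.53 in control and from -3.16 through -1.30 to -1.12 in recovery samples. Samples 3 and 4 were the lowest of their group in both groups, with -2.90 and -1.70 among controls and -1.996 and -3.16 in recovery. The means were -1.52 ± 0.79 (SD, n = 6) and -1.67 ± 0.80 (SD, n = 6), which gave a log2 fold change of -0.15 ± 0.44 (SE) and a 95% interval of -1.10 to 0.81 (limma, adjusted p = 0.897). Recovery minus control came to 0.14 for samples 1 and 2, to -0.28 for samples 3 and 4 and to -0.30 for samples 5 and 6. Each of these is smaller than the gap between the 2 control samples of that pair, which was 0.28, 1.20 and 0.60. The gap between the 2 recovery samples was 0.29, 1.16 and 0.03, and for samples 5 and 6 the difference exceeded it. The direction of AT1G61990 turned without normalisation. There the log2 fold change over all features had a median of 0.43, and AT1G61990 had 0.29, less than that shift, while AT1G62150 had 0.63, AT3G46950 0.71 and AT5G55580 1.01. With median centring, where the median over all features was -0.13, AT1G62150 had 0.076, AT3G46950 0.16, AT5G55580 0.46 and AT1G61990 -0.27.

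**Figure D2:**
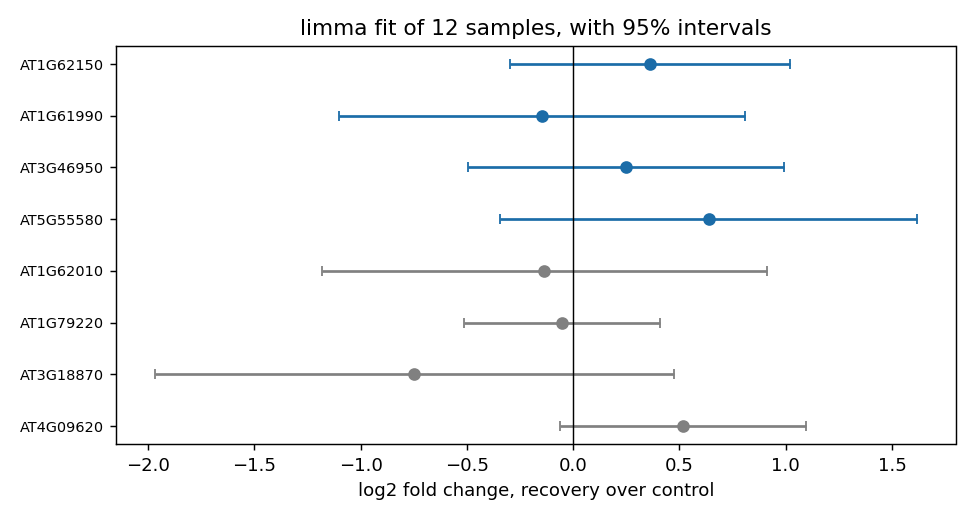
Log2 fold change of recovery over control (horizontal axis) with 95% intervals from the limma fit of all 12 samples, for the 4 mTERF genes (blue) and 4 further genes of the family (grey). All 8 intervals include 0, and that of AT4G09620 reaches down to -0.06. The fit treats the samples as independent.

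With these 4 included, the family list written for this comparison holds 35 genes, of which 19 are on some probe and 8 have a probe of their own. A further 6 probes are assigned to several genes each, all of them mTERF genes, and 3 of the 4 genes described above are also on such a probe. Those probes were not read for any gene. The other 4 genes with their own probe were AT1G62010, AT1G79220, AT3G18870 and AT4G09620, and 0 of these 4 passed the limma test, beside 3.03% of all features. AT4G09620 had a log2 fold change of 0.52 ± 0.27 (SE; limma, adjusted p = 0.341), with 4 of 6 recovery samples above the highest control. Its recovery 1, at -1.57, lay below the lowest control, at -1.46. AT3G18870 had a log2 fold change of -0.75 ± 0.56 (SE; limma, adjusted p = 0.514). AT1G62010 had one of -0.14 and AT1G79220 one of -0.05. The median over the 8 genes was 0.10, with 4 of 8 below 0. Of 35 other genes of organelle transcription (organelle RNA polymerases, sigma factors, polymerase-associated and nucleoid proteins), 0 had a probe of their own, so the family could not be set beside its partners.

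Read by pairs of samples, the family did not share a direction. None of the 4 genes had the same sign in all 3 pairs, which 33.1% of all features had. In AT1G62150 and AT3G46950, samples 3 and 4 went against both other pairs, and 30.2% of all features did so. In AT1G61990 and AT5G55580 samples 1 and 2 differed in sign from the rest. On the deposited scale this still held for AT5G55580, but AT1G61990 gave 0.74 for samples 1 and 2, -0.46 for samples 3 and 4 and 0.59 for samples 5 and 6, so that its odd pair depends on the scaling. Among the 8 family genes, AT4G09620 was the 1 with the same sign in all pairs, at 0.09, 0.85 and 0.61. AT3G18870 gave -1.91 for samples 1 and 2, -1.31 for samples 5 and 6 and 0.97 for samples 3 and 4. An exact two-sided permutation test over the 3 pair means of each group, which cannot give a p below 0.1, gave 0.3 for AT5G55580, 0.5 for AT1G62150, 0.8 for AT1G61990 and 0.9 for AT3G46950, all 0.9 after Benjamini-Hochberg adjustment over the 4 genes.

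**Figure D3:**
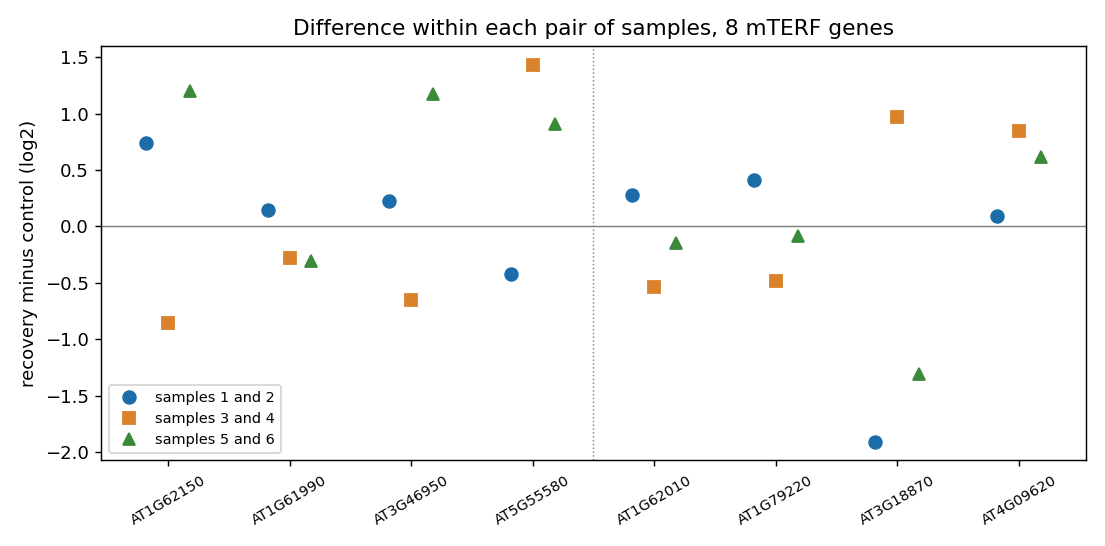
Difference between recovery and control on the log2 scale (vertical axis) within each pair of samples, for the 4 mTERF genes (left of the dotted line) and 4 further genes of the family (right). Samples 3 and 4 (orange squares) lie below 0 for AT1G62150 and AT3G46950, at -0.86 and -0.65, and above 0 for AT5G55580, at 1.43.

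Levels within the family are spot intensities, and since each probe binds its target with its own strength they give no order of transcript amounts. In both groups the mean log2 intensity was highest for AT5G55580, followed by AT1G62150, while AT1G61990 and AT3G46950 were 0.04 ± 1.40 (SD, n = 6) apart in control and -0.35 ± 0.68 (SD, n = 6) in recovery samples, within their spread. AT1G62150 exceeded AT3G46950 within a sample by 0.49 ± 0.35 (SD, n = 6) on the log2 scale in control and 0.60 ± 0.34 (SD, n = 6) in recovery samples, the steadiest of the 6 gene pairs. AT5G55580 exceeded AT1G62150 on average, with AT1G62150 minus AT5G55580 at -0.56 ± 1.12 (SD, n = 6) in control and -0.83 ± 1.12 (SD, n = 6) in recovery samples. The gap in intensity between these probes lay within its spread. A fixed strength of each probe cancels when the change from control to recovery is compared between genes, and this was tested for all 6 pairs of genes. The widest contrast over all 12 samples, AT1G61990 minus AT5G55580, was -1.004 ± 0.97 (SD, n = 6) in control and -1.79 ± 1.23 (SD, n = 6) in recovery samples, which differ by -0.78 (exact two-sided permutation test, p = 0.247, 0.660 after adjustment over the 6 pairs). It was -0.47 without recovery 4 and -1.22 without recovery 1, and without control 4 it was -0.57, narrower than the 0.65 of AT1G62150 minus AT1G61990. All 6 pairs of genes had an adjusted p of 0.660 in that permutation test, which treats the 6 samples a group as independent. With pairs of samples averaged all had 0.8 (exact permutation), in a test that cannot give a p below 0.1. No difference in response between these genes was detectable.

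AT1G62150 and AT3G46950 varied together from sample to sample, whatever the group. Across the 12 samples their log2 intensities had a Pearson correlation of 0.83, or 0.85 over the 6 pair means and 0.86 over the 8 samples other than 3 and 4. Among 637 other genes with a probe of their own and at most 6 of 12 values at the floor, AT1G62150 was the 5th most like AT3G46950 and AT3G46950 the 13th most like AT1G62150. AT3G18870 ran the other way, with a correlation of -0.84 with AT1G62150, also -0.84 over the 8 samples other than 3 and 4. The samples of a pair share their likeness, so these values describe 12 readings and not 12 independent plants. The median correlation of AT1G62150 with all 637 genes was 0.0071.

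The gene most like AT1G61990 of the 637 was another mTERF gene, AT1G62010, with a correlation of 0.90. By the order of genes in assembly TAIR10.1, AT1G61990 lies next to AT1G61980, also of the family, and 1 gene, AT1G62000, stands between it and AT1G62010. The run of 19 protein-coding genes from AT1G61960 to AT1G62150 holds 9 of the 35 listed mTERF genes. The likeness of AT1G61990 and AT1G62010 rested on samples 3 and 4, which were low in both genes and in both groups. Without them the correlation was 0.06 over 8 samples. AT1G61990 and AT1G62150, both in that run, had a correlation of 0.05.

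**Figure D4:**
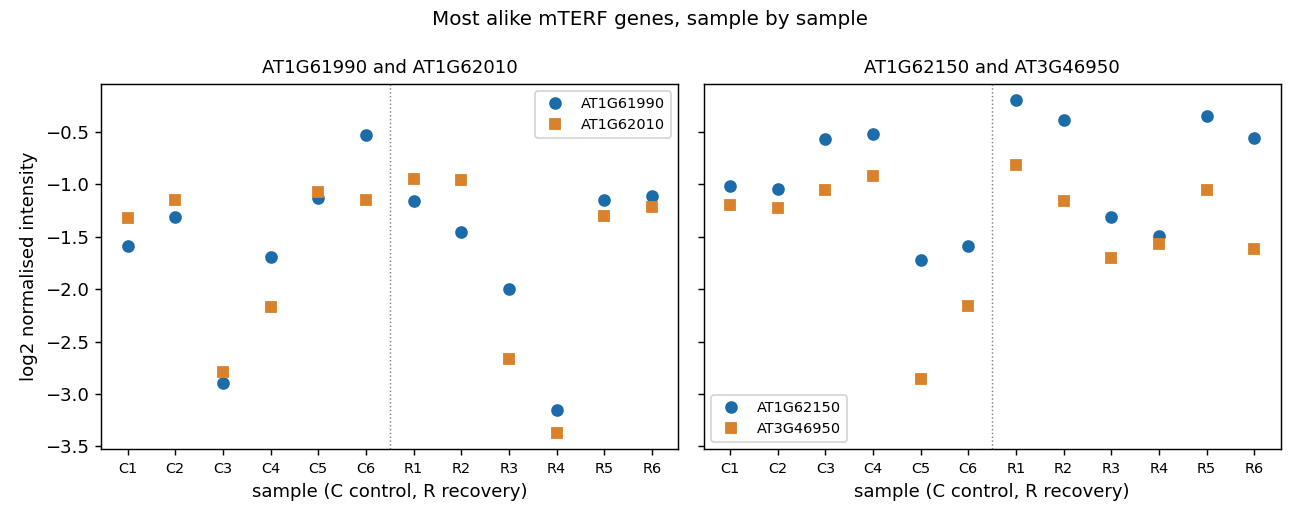
Log2 normalised intensity (vertical axis) in the 6 control (C1 to C6) and 6 recovery (R1 to R6) samples for AT1G61990 with AT1G62010 (left) and AT1G62150 with AT3G46950 (right). On the left both genes are low in samples 3 and 4 of each group, and on the right both are lowest in C5 and C6.

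The 3 genes most similar to each of the 4 were named by rule, by Pearson correlation over the 12 samples. For AT1G62150 they were AT4G29890 (0.94), AT1G50390 (0.94) and AT2G46850 (0.93). For AT3G46950 they were AT5G17630 (0.94), which codes for the xylulose 5-phosphate translocator of the plastid envelope, AT1G17160 (0.87) and AT2G21960 (0.85). For AT5G55580 they were AT3G27180 (0.86), AT3G28460 (0.82) and AT5G17840 (0.80), and for AT1G61990, after AT1G62010, AT3G50880 (0.88) and AT4G16490 (0.88). None of these genes, AT1G62010 included, passed the limma test of recovery against control, with adjusted p-values of 0.269 to 0.945. Of all features, 3.03% passed. The similar genes were picked over the same samples for likeness to genes that did not pass, so this is no separate result. For AT1G61990 the values without samples 3 and 4 were 0.25 for AT3G50880 and 0.58 for AT4G16490, while for the other 3 genes they stayed at 0.76 to 0.97. For those 3 genes the Spearman rank correlations over the 12 samples ran from 0.53 (AT3G46950 with AT2G21960) to 0.95 (AT1G62150 with AT1G50390). Those of AT1G61990 were 0.72 with AT1G62010, 0.66 with AT3G50880 and 0.93 with AT4G16490. Correlations without samples 5 and 6 were not computed.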

How the data were processed

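The authors deposited 1 table of array values for 12 samples, intensities on a linear scale from 0 to 100. How they were scanned, corrected and scaled is not given in the sources used here. Groups and replicate numbers came from the sample titles. The values were then quantile-normalised with limma 3.58.1 in R 4.3.3, set to at least 0.0298, the 5th percentile of the positive values, and put on the log2 scale. Probe genes came from the platform annotation (692 probes with 1 gene, 870 with several, 1877 without a name), and loci from the reference gene table, which matched 690 of the 692. Probes of 1 gene were averaged. The 3438 features were fitted with limma (lmFit, eBayes, no covariate, two-sided), with Benjamini-Hochberg adjustment over all of them. The fits were also run on simulated data with independent samples. Those data hold no pairs, so that check does not cover the likeness within pairs of samples. Fits that leave out samples kept the normalisation of all 12. Deviations from the group mean correlated at 0.110 to 0.462 between control and recovery samples of the same number, all over 0.1. Control and recovery samples of different numbers were not compared in this way, so these values cannot show pairing by number. No label states such pairing, and the replicate number entered only as an alternative block. The number of arrays limits the precision. Named are the 4 genes, other listed genes with their own probe, and 3 similar genes each. The genes and lists were chosen with earlier results of these data known. No source used here names the build of the series, so coordinates are left out and the reference table (TAIR10.1) served for names and gene order. Probe sequences were not analysed here.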

Additional observations from a re-analysis of the deposited data

Results flagged for a closer look

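In the 8 mTERF genes, the highest and lowest sample of each group of 6 were checked by their gap to the nearest other sample, relative to the range of that group. Of 16 groups, 1 was past Dixon's 95% critical value. Chance alone passes it in about 1 of 20 groups of independent samples. Samples of a pair resembled each other here, so that rate cannot be applied. For AT5G55580, recovery 1 lay low at a log2 intensity of -1.53, with the other recovery samples at 0.19 to 0.59, and the gap took up 0.810 of the range. Control 1 was also below control 2 in that gene, at -0.84 against 0.75.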

How the results depend on the processing

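The call changed for 1 of the 4 genes: AT1G62150 passed the limma test without samples 3 and 4 of both groups (log2 fold change 0.97, adjusted p = 0.0269), where 416 of 3438 features (12.1%) passed. With the remaining pairs as a random block, chosen after seeing the data, its adjusted p was 0.0706 and 111 features passed. Its sign turned without samples 5 and 6 (-0.059), as did that of AT3G46950 (-0.21), and that of AT1G61990 turned without normalisation (0.29). Median centring left 0.076 of the 0.36 of AT1G62150 and 0.16 of the 0.25 of AT3G46950. AT5G55580 kept its sign under every alternative, between 0.24 and 1.17. With each sample left out in turn, AT1G61990 ran from -0.42 to 0.15, turning without recovery 4 (0.15) or control 6 (0.05), AT3G46950 from -0.0094, without control 5, to 0.38, AT1G62150 from 0.23 to 0.52 and AT5G55580 from 0.39 to 0.97. The replicate block changed no call of the 4 genes (limma, adjusted p = 0.577 for AT1G62150, 0.814 for AT1G61990, 0.696 for AT3G46950 and 0.316 for AT5G55580) and none of the 6 comparisons between genes (0.675 to 0.750, exact permutation). Of those comparisons, AT1G62150 minus AT3G46950 turned to -0.080 without normalisation, and AT1G62150 minus AT5G55580 ran from -0.71 to 0.080 with single samples left out, turning without control 4. The causes were not tested.

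Over all features the 104 calls (41 higher, 63 lower) became 106 with the replicate block, 58 of them among the 104, 65 with median centring (14 higher, 51 lower), 60 with cyclic loess and 69 without dim features. Without normalisation 79 were higher and 30 lower. With the pairs as a random block limma called 3, and with pairs averaged 0 (203 at an unadjusted p under 0.05). The count was 28 without samples 1 and 2, 416 without samples 3 and 4 (111 with the remaining pairs as a random block), 10 without samples 5 and 6, and 42 to 93 with single samples left out.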
